A study of Mus musculus with 11 samples.

Results

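The 37 genes described here encode the subunits of integrins and the chains of laminins, 26 and 11 of them. They were chosen by their symbols, with earlier results of these data known. All 37 that fit the symbol pattern in the deposited files also reached a normalized count of 1 or more in at least 3 of 11 libraries, as did 18248 of the 23238 genes in the files. The libraries are RNA sequencing of cultured mouse cells from the corpus cavernosum, the erectile tissue of the penis, which the labels call cavernous endothelial cells. After 5 days there were 3 groups, with 3 libraries for normal glucose, 4 for high glucose and 4 for the heat shock protein Hsp70 added to high glucose. All groups grew in M199 medium with fetal bovine serum and heparin. No strain, animal age, genotype, glucose concentration or Hsp70 dose is given in the labels. Whether replicates were separate cultures or animals is not stated either, and p-values therefore measure the spread among these 11 libraries, which may be technical. In their names the deposited files number the libraries by set: sets 3, 4 and 5 hold 1 library of each group, and set 2 holds 1 high glucose and 1 Hsp70 library. What a set stands for is not stated.

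Integrins are receptors of an alpha and a beta subunit that join the cytoskeleton to the matrix or to other cells. The alpha subunit largely sets the ligand, and beta1 serves the most partners. Leukocyte integrins, those with beta2 and the pairs with beta7, are made by blood-derived cells and bind counter-receptors on endothelium. Laminins are trimers of an alpha, a beta and a gamma chain in the basement membrane. In vessel walls the alpha4 and alpha5 chains are the endothelial laminins, and alpha2 is known from muscle and nerve.

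The label was first checked against markers. The 19 endothelial markers summed to 3637 to 4182 normalized counts in each of the 8 libraries outside set 3 and to 5386 to 5816 in the 3 of set 3. Outside set 3 the defining endothelial genes Tie1, Cldn5 and Robo4 had medians of 0.58, 0.08 and 0.28 on the log2 scale and were at 0 in 1 or more libraries, against 4.49 to 6.65 in set 3. Those 3 were thus near absent outside set 3, whereas other endothelial genes were not: Cdh5 stood at 5.68 to 8.26 there, and Eng at 11.01 or more. The 10 fibroblast markers summed to 165267 to 267333 outside set 3 and to 335890 to 412157 in set 3, which did not overlap. The 17 leukocyte markers summed to 464 to 785 outside set 3 and to 5152 to 6028 in set 3. Tyrobp, Spi1, C1qa, C1qb and C1qc were among those at 0 in at least 1 library outside set 3. Each group holds 1 library of set 3, so these markers move with the set and not with the group. The libraries held 24789387 to 27807569 normalized counts, from a roughly implied 22.0 to 31.9 M reads. Low values differed in form between the files. In sets 4 and 5 each library had 2753 genes at 0 and 2820 to 3416 above 0 but far under 1 normalized count. In sets 2 and 3, 4916 to 6010 genes were at 0 and none lay that low above it. Zeros and differences of low genes across these sets carry this limit. In bulk RNA, fewer cells of a type and less RNA per cell cannot be told apart.

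The leukocyte alpha genes Itgal, Itgam, Itgax and Itgad lie on mouse chromosome 7 and were all higher in set 3. Promoters of the neighbours Itgam and Itgax are shown with that of Itgb7, a leukocyte beta subunit that was lower there. Each runs from 250 bases before to 50 bases after a gene start, from RefSeq on GRCm38.p6. Capitals mark GAGGAA, the core letters bound by PU.1, the product of Spi1, or its reverse complement TTCCTC.
Itgam (chr7:128062390-128062689, plus strand): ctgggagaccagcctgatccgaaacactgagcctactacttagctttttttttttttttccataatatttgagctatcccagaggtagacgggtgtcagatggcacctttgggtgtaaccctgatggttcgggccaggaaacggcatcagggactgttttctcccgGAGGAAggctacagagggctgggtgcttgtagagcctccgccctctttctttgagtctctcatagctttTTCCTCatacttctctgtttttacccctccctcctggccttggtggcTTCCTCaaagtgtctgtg
Itgax (chr7:128129300-128129599, plus strand): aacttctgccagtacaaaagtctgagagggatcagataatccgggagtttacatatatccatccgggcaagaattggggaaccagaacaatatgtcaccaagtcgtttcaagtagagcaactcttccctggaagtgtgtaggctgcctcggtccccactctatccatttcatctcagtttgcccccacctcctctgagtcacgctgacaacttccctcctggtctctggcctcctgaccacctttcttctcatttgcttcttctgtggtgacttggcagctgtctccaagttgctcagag
Itgb7 (chr15:102231886-102232185, minus strand): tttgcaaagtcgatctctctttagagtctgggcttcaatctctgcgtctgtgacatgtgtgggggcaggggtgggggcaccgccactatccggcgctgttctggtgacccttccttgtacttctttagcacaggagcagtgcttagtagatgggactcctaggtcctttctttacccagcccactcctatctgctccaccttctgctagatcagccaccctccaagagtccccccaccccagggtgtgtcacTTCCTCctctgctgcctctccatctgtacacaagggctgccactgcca
The Itgam window holds GAGGAA at 1 place and TTCCTC at 2, the Itgax window holds neither, and the Itgb7 window holds TTCCTC at 1 place. The letters occurred on either strand in 14 of the 26 promoters found for 23 of the 37 genes and in 28.3% of the 32851 promoters of the same length in the table. A match describes the letters only, and binding was not measured.

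Which pairs were present at the RNA level was asked first. A pair or trimer was counted as expressed in a group or set when every subunit had a normalized count of at least 10 in every library there. All 18 integrin pairs outside the leukocyte class passed in each of the 3 groups and in each of the 4 sets. Of 6 leukocyte pairs, alphaM beta2 and alpha4 beta7 passed in every group and set. Set 3 added alphaL beta2, alphaX beta2 and alphaD beta2, which made 5 of 6, and alphaE beta7 passed in no group or set. Of 13 laminin trimers looked at, 10 passed in every group and in sets 2, 4 and 5, and 13 in set 3. The 3 that set 3 added all hold gamma3. No trimer with beta3, the product of Lamb3, was among the 13, so these counts hold for the listed trimers only. At this threshold 30 of the 37 pairs and trimers passed in each group and 36 in set 3, against 30 in each other set. The comparison depended on the threshold. At a count of 1, 36, 35 and 34 passed in normal glucose, high glucose and Hsp70, and set 4 equalled set 3 at 36. At a count of 100 the groups had 16, 17 and 14, set 3 had 24 and the other sets 16 to 20, and 14 in place of 30 passed in all 11 libraries. Co-expression of the RNAs does not show that a pair was assembled.

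Levels of different genes were compared as normalized counts per kilobase of exon, as medians over the 11 libraries. Among beta subunits Itgb1 was highest at 5657 per kb, with Itgb5 at 1383 and Itgb8 at 199 next. Itgb2, at 80.1, and Itgb3, at 78.7, did not differ beyond their spread over libraries, and Itgb7 was lowest at 13.5. Itgav at 985 per kb and Itga5 at 649.9 led the alpha subunits, and their ranges over libraries overlapped. They were followed by Itga6 at 166, Itga1 at 133, Itga4 at 72.7 and Itga3 at 46.2, each overlapping the next. At the low end stood Itgax at 1.72, Itgae at 0.936, Itgad at 0.555 and Itgal at 0.198 per kb, all leukocyte subunits. The laminin chains ran from Lamb1 at 3202, Lama4 at 1887, Lamc1 at 1364 and Lamb2 at 622 through Lama2 at 107 to Lamc3 at 1.33 and Lamb3 at 0.437. Taking a complex at the level of its scarcest subunit, the highest trimers were alpha4 beta1 gamma1 at 1364 per kb and alpha4 beta2 gamma1 at 622. The leading integrin pairs on that measure were alphaV beta1 and alphaV beta5 at 985 and alpha5 beta1 at 649.9. Fibronectin and vitronectin are among the ligands of these pairs, though not each of both. Fn1, the gene of fibronectin, had a value of 17.1 or more in every library.

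**Figure D1:**
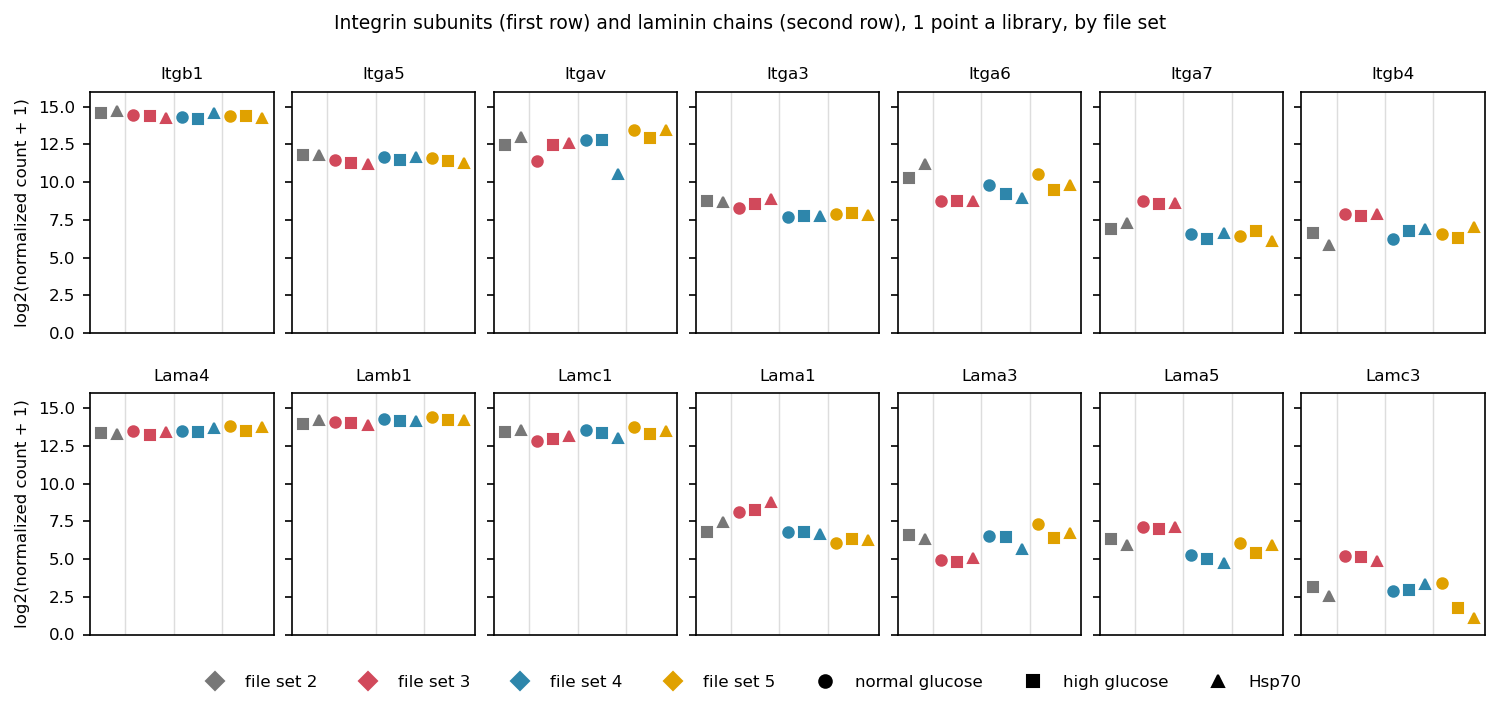
Values of 7 integrin subunits and 7 laminin chains, as log2(normalized count + 1), with 1 point a library, colour for the file set and shape for the group. Itgb1, Lama4 and Lamb1 are level across the libraries, whereas the 3 points of set 3 lie above the other 8 for Itga7, Itgb4, Lama1, Lama5 and Lamc3 and below them for Itga6 and Lama3.

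Levels are given as log2(normalized count + 1). Differences are on that log2 scale, from limma, with their standard error (SE) and p adjusted by Benjamini-Hochberg over the 18248 genes. Fold changes of low genes are understated on this scale. High glucose was compared with normal glucose, Hsp70 with high glucose, and Hsp70 with normal glucose; the comparisons share libraries. Of the 37 genes limma called 0 in each, against 0% of all genes tested in each, and 0 of the 37 had an unadjusted p under 0.05. By size, 15, 16 and 13 of the 37 lay above 0 in the 3 comparisons, with medians of -0.10, -0.01 and -0.07, beside -0.01, 0.00 and -0.00 over all genes. A miss does not show that the groups were alike: the 95% interval lay within 1 log2 unit of 0 for only 12, 13 and 9 of the 37. This fit has no term for the set, so differences between sets enter these group differences and their intervals. With the file set as replicate block, the median SE over all genes for high against normal glucose was 0.222 in place of 0.287.

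Itgb6, a beta subunit that pairs with alphaV and is known from epithelium, had the smallest p for high against normal glucose. It stood at 8.36, 7.17 and 7.46 in normal glucose, at 7.26, 6.78, 6.28 and 7.47 in high glucose and at 6.50, 6.81, 8.02 and 7.67 with Hsp70. The ranges overlapped, and the difference was -0.72 (SE 0.418, adjusted p = 1.00). Lama4, the gene of the alpha4 chain, stood at 13.48, 13.50 and 13.82 in normal glucose and at 13.35, 13.23, 13.41 and 13.51 in high glucose. These ranges again overlapped, with a difference of -0.23 (SE 0.164). Itgb2, the common leukocyte beta subunit, stood at 8.43, 7.85 and 8.20 in normal glucose, at 8.58, 7.53, 7.16 and 7.79 in high glucose and at 7.90, 7.33, 7.93 and 7.95 with Hsp70. Its differences from normal glucose were -0.40 (SE 0.302) and -0.38 (SE 0.302). The difference of the high from the normal glucose library was -0.90 within set 3, -0.69 within set 4 and -0.41 within set 5, below 0 in each. Of the 37, 10 kept a single sign in those 3 sets, 27.0% against 25.6% of all genes.

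With Hsp70, Itgax, the alpha subunit of a receptor of dendritic cells and macrophages, had the smallest p in both comparisons. Its values were 3.73, 3.08 and 3.54 in normal glucose, 2.78, 4.91, 2.75 and 3.29 in high glucose, and 0.00, 3.68, 1.59 and 2.40 with Hsp70. The Hsp70 values overlapped those of high glucose, and the difference was -1.51 (SE 0.730, adjusted p = 1.00). Within sets 2, 3, 4 and 5 it was -2.78, -1.23, -1.16 and -0.89. A single sign in all 4 sets was found for 1 of the 37, Itgax, 2.70% against 8.31% of all genes. These values rest on few reads, since 1 read is worth roughly 0.79 to 1.20 normalized counts. That worth is least sure in sets 4 and 5, whose files hold values far below it. Itga2b, the platelet alpha subunit, stood at 6.18, 6.29 and 5.63 in normal glucose, at 5.26, 5.998, 5.63 and 6.19 in high glucose and at 4.20, 5.40, 5.73 and 5.85 with Hsp70, with differences of -0.47 (SE 0.372) from high and -0.74 (SE 0.402) from normal glucose. Lamb2, the beta2 chain of vessel and synaptic laminins, stood at 11.96, 11.69, 11.77 and 11.76 in high glucose and at 11.75, 11.84, 12.32 and 11.93 with Hsp70, with a difference of 0.16 (SE 0.149). For Hsp70 against normal glucose 6 of the 37 kept their sign within sets 3, 4 and 5, 16.2% against 17.5% of all genes.

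**Figure D2:**
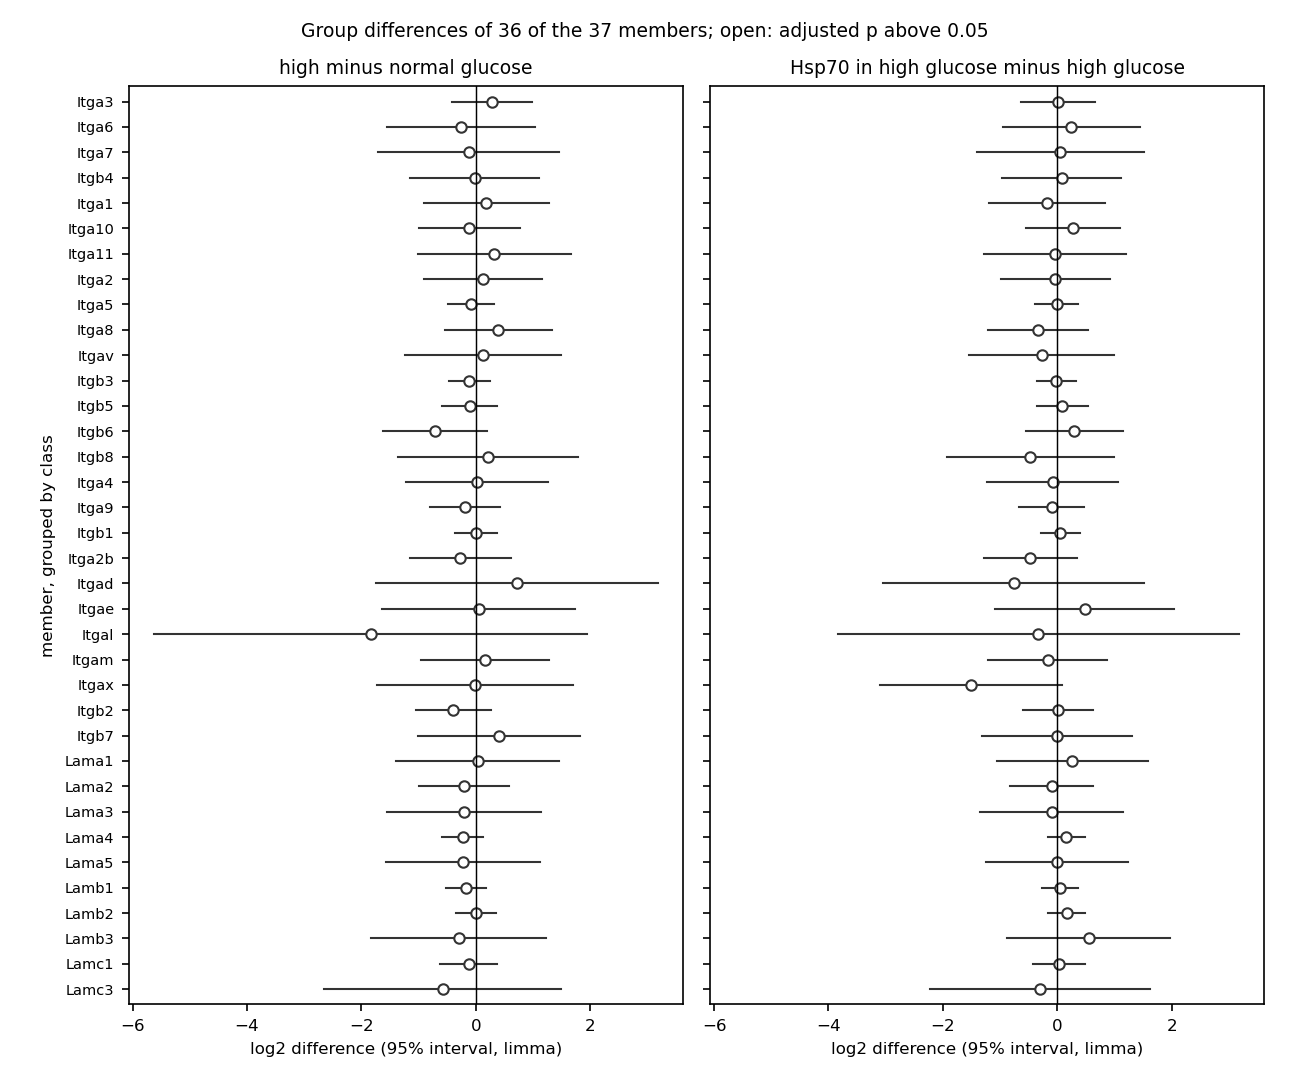
Log2 differences of 36 of the 37 genes with their 95% interval from limma, for high minus normal glucose and for Hsp70 minus high glucose. All points are open, as 0 of the 37 had an adjusted p of at most 0.05 in either comparison. In this fit, which has no term for the set, the interval of Itgal is the widest.

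The sets differed for many of these genes. An F test over the 4 sets in limma, with the groups in the same model, called 14 of the 37, 37.8% against 11.9% of all genes. The 14 were Itga2, Itga3, Itga6, Itga7, Itga9, Itga11, Itgad, Itgal, Itgb4, Itgb7, Lama1, Lama3, Lama5 and Lamc3. Both shares moved as libraries were left out. Without Hsp70 replicate 3 it called 22 of the 37, against 28.7% of all genes. It called 9 without normal glucose replicate 3 (5.8% of all genes) or Hsp70 replicate 4 (6.67%), 8 without high glucose replicate 1 (7.46%) or Hsp70 replicate 1 (5.62%), and 7 without high glucose replicate 2 (3.39%) or Hsp70 replicate 2 (5.06%). For set 3 against the mean of sets 2, 4 and 5, 11 were called higher, 29.7% against 8.21% of all genes, and 3 lower, 8.11% against 4.48%. In 10 of the 37 the 3 libraries of set 3 all lay above the other 8, as in 8.14% of all genes, and in 3 they all lay below, as in 3.85%. Set 3 was known to stand apart when this contrast was chosen, and its 3 libraries are of 1 set, so the spread between sets does not enter these p-values. Without Hsp70 replicate 2, a library of set 3, 9 in place of 14 were called, against 6.56% of all genes, and without Hsp70 replicate 3 the count was 20, against 21%. For set 4 against set 5 limma called 0 of the 37, against 0% of all genes, with 5 of the 37 at an unadjusted p under 0.05. Markers of several cell types were also higher in set 3: 15 of 19 endothelial, 15 of 17 leukocyte, 6 of 8 Schwann cell, 5 of 10 fibroblast and 4 of 10 smooth muscle and pericyte genes, with 1 lower in each of the last pair. Their part in the differences below was not tested.

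**Figure D3:**
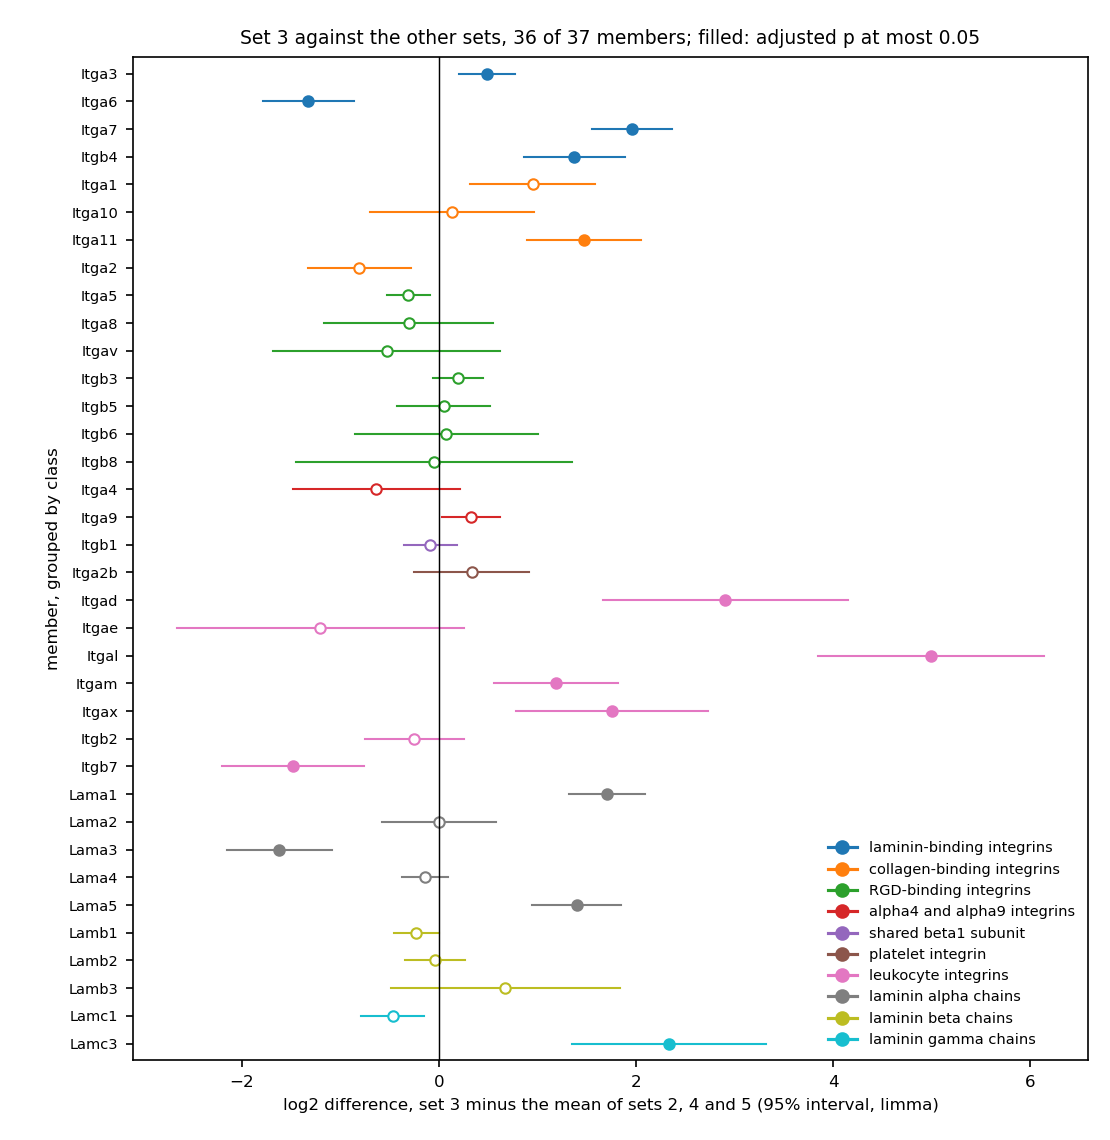
Log2 difference of set 3 from the mean of sets 2, 4 and 5 with its 95% interval from limma for 36 of the 37 genes, coloured by class; filled points have an adjusted p of at most 0.05. Itgal, Itgad and Lamc3 lie farthest above 0 at 4.99, 2.91 and 2.34, and Lama3 farthest below at -1.62.

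Of the 7 leukocyte integrin subunits 4 were higher in set 3, 1 was lower and 2 were not called. Itgal encodes the alpha subunit of LFA-1, the lymphocyte and macrophage receptor for ICAMs, at chr7:127296260-127335138. In set 3 it stood at 5.99, 5.83 and 5.83 in normal glucose, high glucose and Hsp70, and in the other 8 libraries between 0.00 and 3.09 with a median of 0.18. The difference was 4.99 (SE 0.512, adjusted p = 0.000239). Itgad, the alphaD subunit of macrophages at chr7:128154376-128223816, stood at 4.50, 4.40 and 3.97 in set 3 and between 0.07 and 2.92 elsewhere, median 1.57, a difference of 2.91 (SE 0.553). Exons of 4 other genes overlap those of Itgad, 3 of them on the opposite strand, and how the counting treated strand was not found in the labels. Among the other genes called in set 3, such overlaps exist for Itgam on the same strand. On the opposite strand they exist for Itga7, Itgb4, Lama3 and Lamc3. For Itgal and Itgad every library of set 3 lay above the other 8.

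Itgam and Itgax, the neighbours whose promoters are printed above, showed smaller differences. Itgam, the alpha subunit of Mac-1 on myeloid cells, stood at 8.18, 8.36 and 7.89 in set 3 and between 6.09 and 7.48 elsewhere, median 6.95, a difference of 1.19 (SE 0.279, adjusted p = 0.0219). Itgax stood at 3.73, 4.91 and 3.68 against 0.00 to 3.54, median 2.77, a difference of 1.76 (SE 0.435, adjusted p = 0.0277). Both calls depended on single libraries. The adjusted p of Itgam was 0.0777 without normal glucose replicate 1, 0.0580 without normal glucose replicate 3, 0.0720 and 0.154 without high glucose replicates 1 and 2, and 0.0615 without Hsp70 replicate 2. That of Itgax was 0.0530 without normal glucose replicate 3, 0.186 and 0.0514 without high glucose replicates 2 and 3, and 0.0613 and 0.192 without Hsp70 replicates 1 and 2, and 0.0836 with quantile normalization. Spi1, the gene of PU.1, stood at 6.04, 5.97 and 6.18 in set 3 and at a median of 0.17 in the other 8, where its highest value was 2.61. Itgam stood at 6.09 or more in those 8. Whether its level is linked to that of Spi1 was not tested.

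Itgb2, the partner of these 4 alpha subunits, did not follow them. It stood at 8.43, 7.53 and 7.33 in set 3 and between 7.16 and 8.58 in the other libraries, median 7.92, and the difference of -0.25 (SE 0.224, adjusted p = 0.553) had an interval from -0.75 to 0.25. The common leukocyte antigen gene Ptprc, by contrast, was 4.78 higher in set 3 (SE 0.554), at 6.67 to 6.86 against at most 3.94. Itgb7, which pairs with alpha4 and alphaE on gut-homing lymphocytes, went the other way: 3.95, 4.95 and 3.85 in set 3 against 5.03 to 6.97, median 5.44, a difference of -1.48 (SE 0.319, adjusted p = 0.0145), which was not called without normal glucose replicate 1 (0.0631) or Hsp70 replicate 2 (0.115). Itgb7 was highest in set 2, with a median of 36.7 per kb, against 14.3 in set 4, 12.3 in set 5 and 5.39 in set 3. Lymphocyte markers were near 0 throughout, with 2 of 5 tested and a sum of 1 to 8 normalized counts in any library. Itgae, the alphaE subunit of epithelial T cells, stood at 2.42, 0.00 and 1.24 in set 3 and at 1.08 to 3.46 elsewhere, median 2.44, and was not called.

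**Figure D4:**
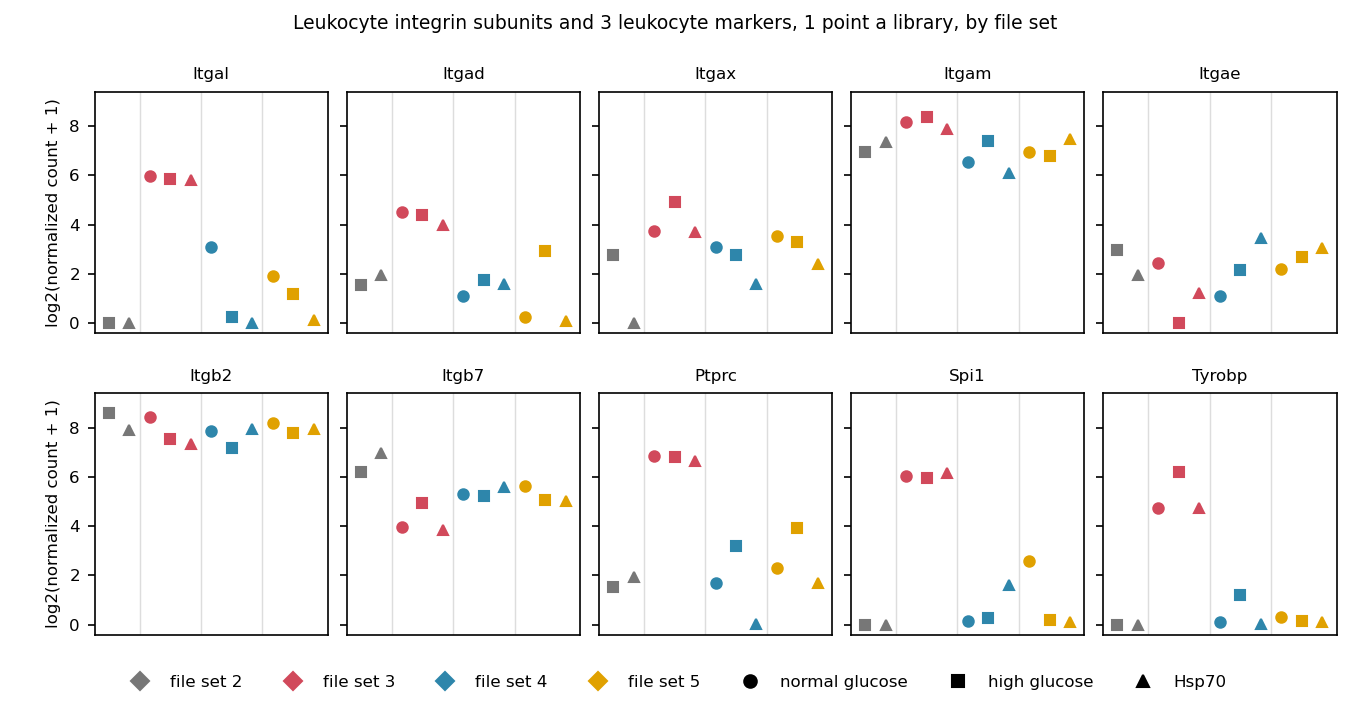
Values of the 7 leukocyte integrin subunits and of the leukocyte markers Ptprc, Spi1 and Tyrobp, as log2(normalized count + 1), 1 point a library, by file set. Itgal and Itgad share the pattern of the markers, high in the 3 libraries of set 3, whereas Itgb2 lies between 7.16 and 8.58 in all 11 and Itgb7 is lower in set 3.

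All 4 laminin-binding subunits were called, 3 higher and 1 lower. Itga7, the laminin receptor alpha subunit of muscle and Schwann cells, stood at 8.72, 8.56 and 8.62 in set 3 against 6.12 to 7.26, median 6.60, a difference of 1.96 (SE 0.182, adjusted p = 0.000139). Itgb4, the beta partner of alpha6 in hemidesmosomes, stood at 7.85, 7.76 and 7.92 against 5.86 to 7.004, median 6.57, a difference of 1.37 (SE 0.228). Itga6 itself stood at 8.72, 8.72 and 8.74 in set 3 and between 8.92 and 11.19 elsewhere, median 9.81, a difference of -1.33 (SE 0.206, adjusted p = 0.00263). The subunits of alpha6 beta4 therefore differed in opposite directions. Itga6 was highest in set 2, with a median of 408 per kb, against 134 in set 4, 207 in set 5 and 96.6 in set 3. Itga3, which pairs with beta1, stood at 8.30, 8.57 and 8.85 against 7.70 to 8.72, median 7.85, and was called at 0.49 (SE 0.128, adjusted p = 0.0355) although the ranges overlapped. The overlap came from set 2, whose libraries stood at 8.72 and 8.66. Its call held without normal glucose replicate 1 or Hsp70 replicate 3 and was lost without any other single library, at adjusted p from 0.0541 without normal glucose replicate 2 to 0.265 without Hsp70 replicate 2, and with quantile normalization (0.0587). The markers of smooth muscle and pericytes, cells also known to make Itga7, summed to 10008 to 12699 in set 3 and to 7501 to 9537 elsewhere, and the Schwann cell markers to 3694 to 7544 and 962 to 2530.

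Among the 4 collagen receptors only Itga11, the alpha subunit of fibroblasts, was called. Its values in set 3 were 6.79, 6.77 and 7.31 against 4.83 to 6.49, median 5.53, with a difference of 1.47 (SE 0.259, adjusted p = 0.00507). The fibroblast markers were higher in the same libraries, 5 of 10 called with a median difference of 0.70 and sums of 335890 to 412157 against 165267 to 267333, and their part in this difference was not tested. Itga1 stood at 10.54, 11.18 and 11.49 against 9.39 to 11.22, median 10.30, a difference of 0.95 (SE 0.280) that missed the threshold at adjusted p = 0.0604. Itga2 stood at 6.76, 7.17 and 7.31 against 6.65 to 8.50, median 7.99, a difference of -0.81 (SE 0.234, adjusted p = 0.0528). The F test over the 4 sets called Itga2 (adjusted p = 0.0383). The directions of these alpha subunits thus were not shared. Without Hsp70 replicate 3, Itga1 and Itga2 were both called, at adjusted p = 0.00770 and 0.00380; Itga1 was called also without high glucose replicate 3 (0.0431) or Hsp70 replicate 4 (0.0420) and Itga2 without high glucose replicate 4 (0.0425). Itga10, the cartilage subunit, lay between 3.95 and 5.49 in all libraries and was not called.

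For set 3 against the other sets, the 7 subunits of the RGD-binding class, which read a short peptide in fibronectin and vitronectin, held 0 calls. The beta1 subunit and the alpha4 and alpha9 subunits held 0 calls too, and Itga5 and Itga9 had an unadjusted p under 0.05. Itga9 was called by the F test over the 4 sets (adjusted p = 0.0304). Its median was 20.4 per kb in set 2 and 35.6 to 37.9 in the other sets. Itgb1 stood at 14.46, 14.39 and 14.28 in set 3 and at 14.21 to 14.70 elsewhere, median 14.40, a difference of -0.09 with an interval from -0.36 to 0.18. Itga5, the fibronectin receptor, stood at 11.48, 11.29 and 11.20 against 11.26 to 11.82, median 11.61, and Itgb3 at 9.03, 8.74 and 8.96 against 8.37 to 8.90, median 8.81. Their differences were -0.31 (SE 0.0981) and 0.19 (SE 0.114). For Itgav the interval was wide, from -1.68 to 0.62, with values of 11.39, 12.46 and 12.60 in set 3 and 10.51 to 13.44 elsewhere, median 12.85. Itga4, whose pairs bind VCAM-1, stood at 8.38, 8.99 and 9.47 against 7.73 to 10.34, median 9.64, and Itga9 at 7.97, 8.09 and 8.20 against 6.97 to 8.21, median 8.01. Itga2b, with Itgb3 the fibrinogen receptor of platelets, stood at 6.18, 5.998 and 5.40 against 4.20 to 6.29, median 5.68, and was not called. Without Hsp70 replicate 3, Itga4, Itga5 and Itgav were called lower in set 3, at adjusted p = 0.0425, 0.0269 and 0.0349. The remaining Itga8, Itgb5, Itgb6 and Itgb8 had differences of -0.31, 0.05, 0.07 and -0.05.

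Of the 11 laminin chains 3 were higher in set 3 and 1 lower. Lama1, the embryonic alpha chain, stood at 8.15, 8.25 and 8.76 against 6.08 to 7.47, median 6.72, a difference of 1.71 (SE 0.173, adjusted p = 0.000233). Lama5, the widespread alpha chain of mature basement membranes, stood at 7.13, 6.98 and 7.13 against 4.76 to 6.31, median 5.66, a difference of 1.40 (SE 0.201). Lama3, the epithelial alpha chain, stood at 4.92, 4.78 and 5.05 against 5.65 to 7.33, median 6.48, a difference of -1.62 (SE 0.237, adjusted p = 0.00186). In all 3 genes the libraries of set 3 lay apart from the other 8. Lama4, by contrast, stood at 13.48, 13.23 and 13.43 against 13.29 to 13.82, median 13.50, a difference of -0.15 with an interval from -0.38 to 0.09, and Lama2 had a difference of 0.00 (SE 0.257).

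The beta chains were not called in either direction, with 1, Lamb1, at an unadjusted p under 0.05. Lamb1 stood at 14.06, 13.999 and 13.92 in set 3 and at 13.96 to 14.45 elsewhere, median 14.23, and Lamb2 at 11.92, 11.69 and 11.84 against 11.68 to 12.32, median 11.77. Lamb3 was low, at 3.18, 1.27 and 2.72 against 0.96 to 3.33, median 1.68. Of the gamma chains Lamc3, known from nerve and retina, was called, at 5.19, 5.15 and 4.87 against 1.10 to 3.41, median 2.94, a difference of 2.34 (SE 0.438, adjusted p = 0.00718). A gene on the opposite strand, Gm13441, overlaps its exons. Without high glucose replicate 2 the adjusted p of Lamc3 was 0.0751, and without Hsp70 replicate 2 it was 0.0587. Lamc1, the common gamma chain, stood at 12.86, 12.97 and 13.15 against 13.01 to 13.76, median 13.45, a difference of -0.47 (SE 0.141) that missed the threshold at adjusted p = 0.0600 and passed it without Hsp70 replicate 3 (0.00589). In the main fit the most abundant trimer chains, alpha4, beta1 and gamma1, thus held no call, and the calls fell on chains of lower level per kb. For gamma1 this depended on the processing, as Lamc1 gained a call under 2 alternatives. After the correction for length and GC content given below, it stood at 13.10, 13.09 and 13.11 in set 3 and at 13.16 to 13.74 in the other libraries.

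Genes that work with these receptors and matrix chains were counted from 3 lists. Over all genes 8.21% were called higher and 4.48% lower in set 3. Of 29 genes of the adhesion machinery inside the cell 3 were higher and 3 lower, 10.3% each, with a median difference of -0.04 beside 0.00 over all genes. Fermt3, kindlin-3, which activates integrins in blood cells, was 2.31 higher (SE 0.232), at 6.40, 6.67 and 6.14 against 3.65 to 4.47. Tln2, a talin, was 0.63 higher (SE 0.128), a call lost without high glucose replicate 2 (adjusted p = 0.0727) or Hsp70 replicate 2 (0.0986). Parvb, which joins ILK to actin, and Ptk2b, a focal adhesion kinase relative, were lower, with differences of -1.16 (SE 0.135) and -0.87 (SE 0.118). Of 14 partners of laminin in the basement membrane 5 were higher and 4 lower, 35.7% and 28.6%, with a median of 0.01. Nid2, a nidogen that links laminin to collagen IV, gave 1.20 (SE 0.135), Ntn4, a netrin that binds laminin gamma chains, 1.60 (SE 0.249), Col18a1, the collagen of endostatin, 0.74 (SE 0.111), and Agrn, which binds laminin and dystroglycan, -0.70 (SE 0.1005). Of 14 integrin ligands 3 were higher and 4 lower, 21.4% and 28.6%, with a median of 0.12. Tnc, tenascin-C, gave 1.47 (SE 0.130) and Icam2, an endothelial ligand of LFA-1, 3.64 (SE 0.406), whereas Vcam1, the ligand of alpha4 integrins, gave -0.97 (SE 0.106) and Fn1 -0.99 (SE 0.124). In the 3 group comparisons limma called 0 of the 57 genes of these 3 lists, with 0, 0 and 1 at an unadjusted p under 0.05.

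Single libraries also moved several of the 37 together. In Hsp70 replicate 3, 9 of the 37 lay more than 1 log2 unit below their median over the 11 libraries, and 8 had their lowest value there. Itgav stood at 10.51 in that library and at 11.39 in normal glucose replicate 1, against 12.46 to 13.44 in the other 9. Itgb8, the partner of alphaV in the activation of TGF-beta, stood at 8.12 in Hsp70 replicate 3. Across the 37 genes the deviation from the median had r = 0.546 with the GC content of the transcript in Hsp70 replicate 3. It had r = -0.414 in Hsp70 replicate 4, 0.448 in normal glucose replicate 1 and -0.393 in normal glucose replicate 3. In the remaining libraries r lay between -0.272 and 0.262. These are descriptions across genes, which are not independent. Over 11188 expressed genes the r in Hsp70 replicate 3 was 0.532, and the tenth with the lowest GC content had a median deviation of -0.56. The r over these genes was 0.335 and -0.337 in normal glucose replicates 1 and 3, -0.275 in high glucose replicate 4 and -0.305 in Hsp70 replicate 4. The trend was thus not confined to 1 group. After the trend with length and GC content was removed from each library, a step chosen after seeing the data, Itgav stood at 11.09 in Hsp70 replicate 3 and 11.83 in normal glucose replicate 1 against 12.56 to 13.12. With this correction limma called 0 of the 37 in each group comparison, and for set 3 it called 13 higher, 35.1% against 10.4% of the 15995 genes then tested, and 6 lower, 16.2% against 7.3%.

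**Figure D5:**
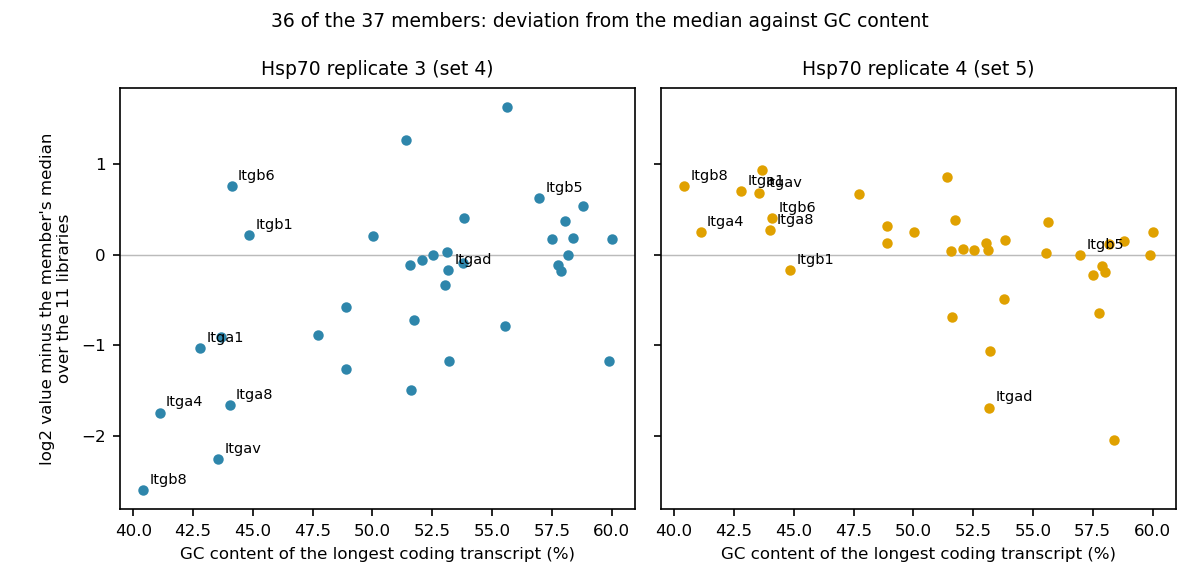
Deviation of 36 of the 37 genes from their median over the 11 libraries, in log2 units, against the GC content of the longest coding transcript in percent, in Hsp70 replicates 3 and 4. Of the 8 genes with a GC content under 45%, 6 lie below 0 in replicate 3, among them Itgb8, Itgav, Itga4 and Itga8, while Itgb6 and Itgb1 lie above 0; in replicate 4, 7 of the 8 lie above 0 and Itgb1 lies below.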

How the data were processed

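The deposited values, 1 file per library, are log2 values by the authors, read from the values as log2(normalized count + 1); TopHat, edgeR and mm10 are named in the submitters' processing notes, without versions, and the normalization, the annotation and the use of strand in counting: not given in the sources used here. The labels give a stranded SMARTer kit. Each file held 23282 genes; of repeated symbols the highest was kept, which left 23238. Tested were the 18248 genes whose normalized count reached 1 in 3 or more libraries, with limma 3.58.1 in R 4.3.3 (trended prior, robust variance, Benjamini-Hochberg at 0.05). Groups were fitted as 3 means. Sets were fitted beside the group, with libraries of 1 set counted as separate samples. Lengths, GC content and positions came from GENCODE M21, which is of build mm10 and matched all 37 genes. The fits were checked on simulated data with known changes. The data simulated for the group comparison held no differences between sets. That check therefore cannot tell how many differences between the groups would be missed in these libraries.

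The members, lists and contrasts were chosen with earlier results of these data known. Values of the set 3 libraries, with the range and median of the other libraries, are given for 3 kinds of members. These are all leukocyte integrins, up to 3 members of each other class by smallest unadjusted p for set 3, and 9 subunits named in the rule (Itgb1, Itga5, Itgav, Itgb3, Itga6, Lama4, Lama5, Lamb1 and Lamc1). For the 3 smallest p in each group comparison, values in every library of the groups compared are given. Up to 4 genes of each list are named. Of the 37 genes, 1 enters the counts but is not reported singly here. Itgb8 and the values in single libraries were chosen after their values were seen. Of the other marker lists, 2 of 4 tested platelet genes, 0 of 5 tested epithelial genes and 0 of 2 tested lymphocyte genes were higher in set 3. The alternatives, with their effect, are in the closing section.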

Additional observations from a re-analysis of the deposited data

Results flagged for a closer look

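In a group of 4 libraries a value was singled out when its gap to the nearest other exceeded Dixon's 95% critical value as a share of the group's range. Of 74 groups of 4 tested, 6 were singled out, where chance gives about 1 in 20. In Hsp70 replicate 3, Itga8 was lowest at 5.498 (the others 7.14 to 7.42) and Itgb5 highest at 12.82 (the others 12.12 to 12.20). In Hsp70 replicate 2, a library of set 3, Itgal was highest at 5.83 (the others 0.00 to 0.11) and Itgb2 lowest at 7.333 (the others 7.90 to 7.95). Lama3 was lowest in high glucose replicate 2, also of set 3, at 4.779 (the others 6.37 to 6.59). Itga9 was lowest in high glucose replicate 1, of set 2, at 7.399 (the others 7.99 to 8.09).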

How the results depend on the processing

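Under all alternatives run, each comparison of groups, and set 4 against set 5, called 0 of the 37 genes by limma. With the file set as replicate block 2, 1 and 1 of the 37 had an unadjusted p under 0.05, and 0 were called; with the title number as replicate block 0 were called too. The main fit did not pair the libraries by either number. After group means were taken out, libraries that share a set correlated at 0.285 to 0.594 for normal and high glucose. The range was 0.0586 to 0.691 for high glucose and Hsp70 and 0.0219 to 0.458 for normal glucose and Hsp70. In these pairs of groups 3 of 3, 3 of 4 and 2 of 3 libraries were closest to that of their own set. By title number, normal glucose correlated at -0.357 to 0.137 with high glucose and at -0.26 to -0.127 with Hsp70. For set 3 against the other sets the count of 14 ran from 9 (without Hsp70 replicate 2) to 20 (without Hsp70 replicate 3) as libraries were left out in turn, and over any of the 4 sets from 7 (without high glucose replicate 2 or Hsp70 replicate 2) to 22 (without Hsp70 replicate 3). With no filter on low values 5, and with no trended prior 9, were called over any of the sets; the cause was not tested. Complexes expressed in all libraries fell from 30 to 14 at a normalized count of 100, by construction. Of 807 values of single genes under alternatives, 732 kept direction and call, 27 lost the call, 16 gained it and 32 changed sign, all of genes not called. With quantile normalization these were Itgb1 (0.0252), Lamb2 (0.0823), Itga10 (-0.280), Itgb6 (-0.0549) and Itgb8 (0.0280), and with the length and GC correction Lamb2 (0.0356) and Itgb8 (0.140). As libraries were left out in turn, the difference of set 3 ran from -0.974 to 0.0111 for Itgav, from -0.150 to 0.0441 for Lamb2, from -0.413 to 0.480 for Itga10, from -0.714 to 0.110 for Itga8, from -0.182 to 0.208 for Itgb5, from -0.401 to 0.431 for Itgb6, from -0.839 to 0.728 for Itgb8 and from -0.274 to 0.214 for Lama2. Leaving out single libraries ended the call of Itga3 in 9 of 11 cases, and that of Itgam, Itgax, Itgb7, Lamc3 or Tln2 in some. The length and GC correction and leaving out set 3 together with the block were chosen after seeing the data. Depth limits Itgal, Itgad, Itgae, Itgax, Lamb3 and Lamc3, whose low values rest on few reads.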
